A study of Homo sapiens with 2 samples.

Results

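The genes described here are 10 members of the Hippo pathway and its output: the kinases LATS1 and LATS2, the coactivators YAP1 and WWTR1 (the gene of the protein TAZ), the DNA-binding factors TEAD1 and TEAD4, and the target genes CTGF, CYR61, ANKRD1 and AMOTL2. They were chosen by name from the gene table of the series, and all 10 were found among its 27685 genes. RNA came from NCI-H838, an established line of human lung adenocarcinoma. One culture was transfected with the plasmid pCDH carrying full-length LINC00472, which is a long noncoding RNA from between genes. The control culture received the empty pCDH plasmid. Both were transfected with a lipid reagent, and total RNA was taken 48 hours later. The transfection was transient, so each culture may hold cells that took up no plasmid, and their share is not given in the sources used here. The question of the comparison is how transcript levels differ once LINC00472 is overexpressed.

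With 1 library per group, differences have no replicate check and no p-value is given. Intervals are at 95% and cover counting error alone. They treat reads as independent, and they may be too narrow because reads can be copies of the same molecule. The LINC00472 library held 21093055 counts and the control 54823706. LINC00472 itself had 5655 counts against 2563, a log2 ratio of 2.23 (2.16 to 2.30). Of the markers of the labelled cells, the keratins KRT8 and KRT18 were abundant, with 94.2 and 157 FPKM in the control (FPKM is the deposited level per transcript length and library size). The 5 epithelial markers summed to 53.6 FPKM in the LINC00472 library against 254 in the control, and nearly all of that sum was KRT8 and KRT18. KRT19 had 0 against 44 counts, while CDH1 had 239 against 368 counts (log2 ratio 0.47) and EPCAM 1.18 against 1.19 FPKM. The 6 markers of lung adenocarcinoma summed to 9.11 and 10.8 FPKM. Of these, NAPSA was higher (88 against 66 counts, log2 ratio 1.49), MUC1 had 6.71 and 9.98 FPKM, SFTPC had 0 and 7 counts, and NKX2-1, SFTPB and SFTPA1 had 0 in both. Some markers of other cells differed. The 3 squamous markers summed to 0.0162 FPKM in the LINC00472 library against 3.42 in the control. KRT5 had 0 against 395 counts (log2 ratio -9.18, interval up to -5.65) and DSG3 0 against 67 (interval up to -3.05). The 4 leukocyte markers summed to 7.90 and 3.07 FPKM, of which CD14 made up 7.77 and 2.75. PTPRC had 0 counts in the LINC00472 library against 32 in the control, and CD3E had 0 in both. The 3 endothelial markers summed to 0.165 and 0.153 FPKM and the 4 fibroblast markers to 1.93 and 1.95. PECAM1, CDH5 and DCN had 0 counts in the LINC00472 library against 6, 9 and 28 in the deeper control. The intervals of PECAM1 and CDH5 held equality, while those of DCN (up to -1.74) and PTPRC (up to -1.94) did not. The part of these markers in the results below was not tested.

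The Hippo pathway restrains growth in epithelia. Its upstream kinases activate LATS1 and LATS2, which phosphorylate YAP and TAZ and keep them in the cytoplasm or mark them for degradation. Unphosphorylated YAP and TAZ enter the nucleus, bind TEAD factors, which recognise the DNA letters GGAATG, and switch on genes such as CTGF, CYR61, ANKRD1 and AMOTL2. Much of this control acts on the proteins, so messenger RNA levels of the kinases and coactivators do not report pathway activity. In lung adenocarcinoma YAP and TAZ are studied as drivers of growth and spread.

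Of the 10 genes, 4 were lower in the LINC00472 library, none was higher, and 6 fell short of the rule of size. That rule asks for a mean of at least 1 CPM (counts scaled to library size), a ratio of at least 2-fold, and a counting interval that excludes equality. The genes that were lower were TEAD4 and the targets CTGF, ANKRD1 and AMOTL2. CYR61, TEAD1, LATS1, LATS2, YAP1 and WWTR1 had log2 ratios between -0.59 and 0.21. In bulk RNA, fewer cells expressing a gene and less RNA per cell cannot be told apart. All 10 genes passed the minimum of 1 CPM. Over the 14012 genes at this minimum, 23.8% were lower and 16.3% higher by the same rule, so calls were common throughout these libraries. Among protein-coding genes alone, to which all 10 belong, 26.2% were lower and 11.3% higher. The 4 lower calls among 10 chosen genes are a description, and nothing about the pathway is read from that share. The median log2 ratio was -0.55 over the 10 genes, -0.19 over all genes at the minimum and -0.31 over the protein-coding ones. The scaling moves the median of all genes, which was 0.11 when libraries were scaled to their total counts and 0.21 under upper quartile factors. Log2 ratios are of the LINC00472 library over the control after TMM scaling (edgeR's correction for library composition).

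**Figure D1:**
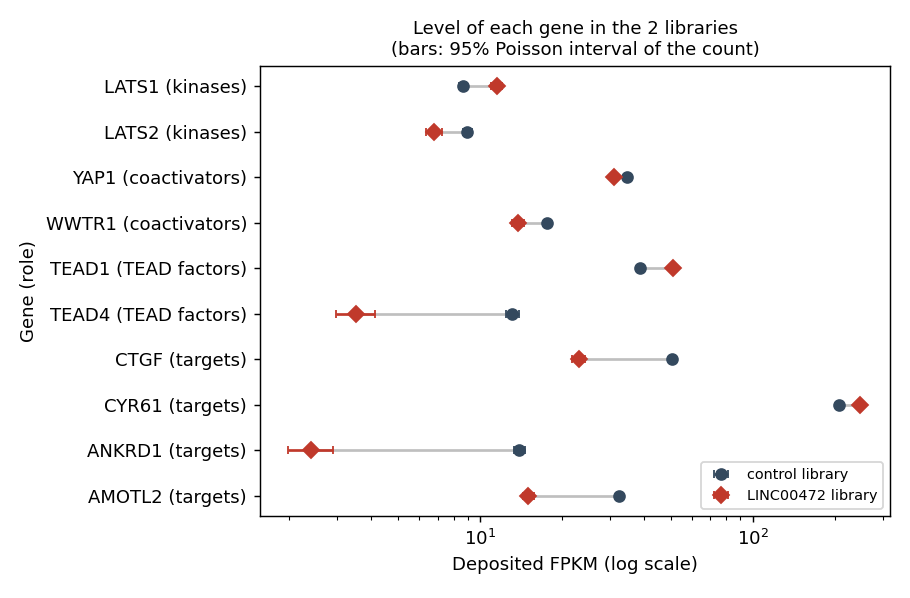
Deposited FPKM of the 10 genes (log axis) in the control library (circles) and the LINC00472 library (diamonds), with 95% Poisson intervals of the counts as bars. TEAD4, CTGF, ANKRD1 and AMOTL2 sit far to the left in the LINC00472 library, and CYR61 is the highest gene in both, at 247 and 207 FPKM.

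The kinases were the lowest-expressed pair in the control. LATS1, which phosphorylates YAP and TAZ, had 1727 counts in the LINC00472 library against 3452 in the control, or 11.5 and 8.64 FPKM. Its log2 ratio was 0.09 (0.01 to 0.17). The sign of that ratio depended on the processing, since it became -0.36 when ratios were adjusted for the length, GC content and introns of transcripts. LATS2, its paralog and itself a target of YAP, had 887 and 2833 counts, or 6.80 and 8.98 FPKM, and a log2 ratio of -0.59 (-0.70 to -0.48). In the control the counting intervals of the 2 kinases' FPKM overlapped (8.35 to 8.93 for LATS1, 8.65 to 9.32 for LATS2). In the LINC00472 library LATS1 stood above LATS2 and the intervals did not overlap.

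LATS1 was also the gene whose FPKM and counts diverged most. The length that counts and FPKM together imply was 6381 nt in the LINC00472 library and 7024 nt in the control, a ratio of 0.908. For the other 9 genes this ratio lay between 0.981 and 1.02. LATS1 is listed with 6 RefSeq transcripts and YAP1 with 9, and the files give no value for each transcript.

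The coactivators did not meet the rule of size. YAP1, the main coactivator, had 3828 and 10525 counts, or 31.1 FPKM in the LINC00472 library against 34.6 in the control. Its log2 ratio was -0.37 (-0.42 to -0.32) and turned to 0.02 with upper quartile factors. WWTR1, which encodes the related coactivator TAZ, had 1663 and 5041 counts, or 13.8 and 17.7 FPKM, and a log2 ratio of -0.51 (-0.59 to -0.43). WWTR1 reached 2-fold with ratios adjusted for transcript properties (-1.11). The antisense RNA WWTR1-AS1 had 80 and 153 counts. Whether reads were counted by strand is not given in the sources used here, and the part of that RNA in the counts of WWTR1 was not tested.

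The TEAD factors parted. TEAD1, the more abundant of the pair, had 11295 and 20736 counts, or 51.0 FPKM in the LINC00472 library against 38.7 in the control. Its log2 ratio was 0.21 (0.18 to 0.25), or -0.57 with adjusted ratios. TEAD4, a paralog that binds the same DNA letters, had 146 and 1337 counts, or 3.50 and 13.1 FPKM. It was 4.30-fold lower (log2 -2.10, interval -2.36 to -1.86), below all but 3.41% of the genes at the minimum. In FPKM it fell from above 60.8% of genes in the control to above 25.8% in the LINC00472 library.

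**Figure D2:**
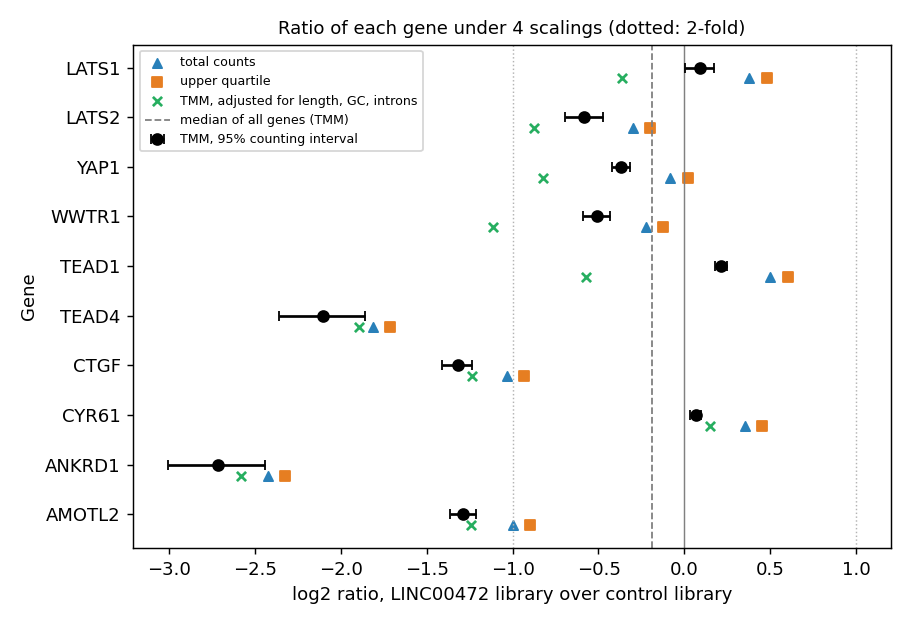
Log2 ratio of the LINC00472 library over the control for each of the 10 genes, with TMM and its 95% counting interval (black), total counts (triangles), upper quartile factors (squares) and TMM ratios adjusted for transcript properties (crosses). ANKRD1 and TEAD4 stay beyond 2-fold under all 4, CTGF and AMOTL2 move to -0.93 and -0.90 with upper quartile factors, and CYR61 is above 0 under all 4.

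Target genes carried the widest spread. Promoter sequence is shown for the 3 targets that were lower, and only for starts that hold the GGAATG letters bound by TEAD factors. The table of promoters (RefSeq, GRCh38.p14) held entries for 7 of the 10 genes, matched by gene ID. TEAD1, TEAD4 and CYR61 had no entry. Each line gives the 250 bases before an annotated start on the minus strand, 5′ to 3′ towards the gene, at chr6:131951373-131951622 for CTGF, chr10:90921088-90921337 for ANKRD1 and chr3:134374448-134374697 for the second listed start of AMOTL2. Capitals mark GGAATG or its reverse complement CATTCC.
CTGF: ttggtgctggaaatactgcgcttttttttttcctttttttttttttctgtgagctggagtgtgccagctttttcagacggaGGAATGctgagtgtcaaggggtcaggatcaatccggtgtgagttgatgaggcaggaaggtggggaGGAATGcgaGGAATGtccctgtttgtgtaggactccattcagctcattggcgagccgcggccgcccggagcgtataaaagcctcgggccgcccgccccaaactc
ANKRD1: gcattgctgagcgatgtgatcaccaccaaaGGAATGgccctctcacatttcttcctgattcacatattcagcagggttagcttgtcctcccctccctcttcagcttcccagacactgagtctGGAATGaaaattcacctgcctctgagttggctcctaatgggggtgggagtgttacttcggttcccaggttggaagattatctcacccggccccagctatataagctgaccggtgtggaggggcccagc
AMOTL2: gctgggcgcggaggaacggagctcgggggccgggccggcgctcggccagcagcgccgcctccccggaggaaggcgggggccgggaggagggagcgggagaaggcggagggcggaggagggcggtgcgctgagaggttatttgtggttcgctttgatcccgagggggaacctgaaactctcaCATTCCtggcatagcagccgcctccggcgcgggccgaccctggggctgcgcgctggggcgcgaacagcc

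CTGF holds 3 copies, which begin 169, 104 and 95 bases before the start. ANKRD1 holds 2 copies, which begin 220 and 128 bases before the start, and AMOTL2 holds 1 in the reverse orientation, which begins 69 bases before the second listed start. The first listed start of AMOTL2 has none in this window. Of 35116 promoter windows of this length, 11.9% hold at least 1 copy on either strand, 0.94% at least 2 and 0.0826% at least 3. These shares are per window, and AMOTL2 has 2 windows. The 3 genes were listed as known targets and their starts were picked for the letters, so the shares do not test them. YAP1, which did not meet the rule of size, has 1 copy too, and LATS1, LATS2 and WWTR1 have none in these windows. A match of letters is a description and does not show binding in these cells.

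CTGF (also named CCN2) encodes a secreted matricellular protein. It had 1269 counts in the LINC00472 library against 6747 in the control, or 23.0 and 50.6 FPKM. The control was higher, and the gene was 2.50-fold lower (log2 -1.32, interval -1.41 to -1.23). With total counts the log2 ratio was -1.03, and with upper quartile factors it was -0.93, which ends the call.

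CYR61 (also named CCN1) encodes another secreted protein of the same family, and it went with none of the other targets. It had 13307 and 27055 counts, or 247 and 207 FPKM. Its level was above 99.4% of the genes at the minimum in the LINC00472 library and above 98.2% in the control. The log2 ratio was 0.07 (0.04 to 0.10), and it was 0.15 with adjusted ratios and 0.45 with upper quartile factors.

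ANKRD1, an ankyrin-repeat protein of stressed muscle that is widely read as a YAP target, had 112 and 1568 counts, or 2.41 and 14.0 FPKM. It was 6.56-fold lower (log2 -2.71, interval -3.01 to -2.44), and 0.828% of all genes at the minimum had a ratio as low or lower. It moved from the seventh place among the 10 genes by FPKM in the control to the last place in the LINC00472 library. AMOTL2, a scaffold that binds YAP and holds it back, had 1768 and 9193 counts, or 15.0 and 32.3 FPKM. It was 2.44-fold lower (log2 -1.29, interval -1.36 to -1.22). Total counts placed it at the 2-fold line, and upper quartile factors (-0.90) short of it. By raw counts, without TMM scaling, the 4 targets together took 0.0780% of the LINC00472 library's total and 0.0813% of the control's. These shares are therefore not on the scale of the TMM ratios above. CYR61 makes up most of the targets' reads in both.

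**Figure D3:**
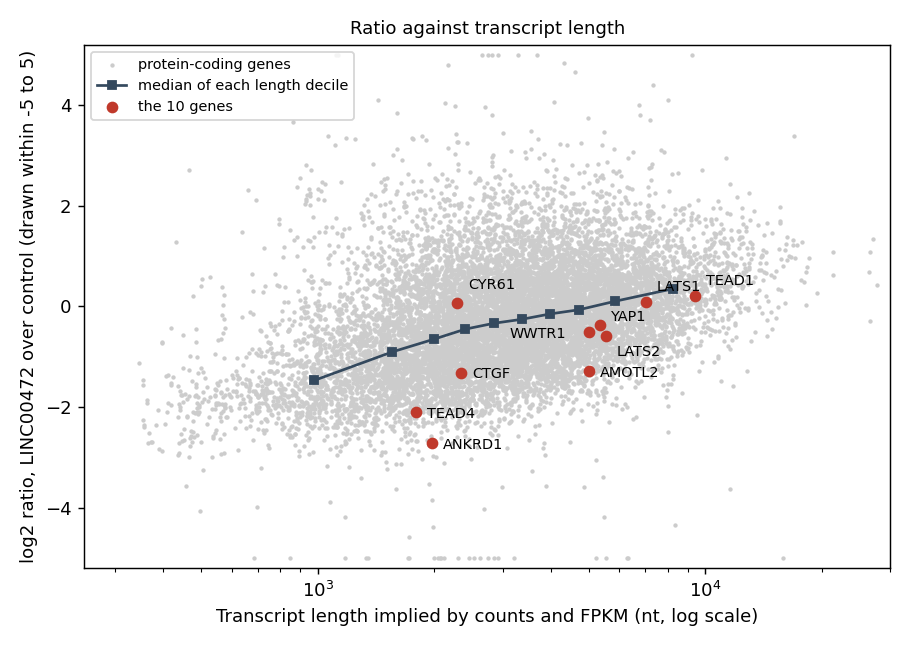
Log2 ratio against the transcript length implied by counts and FPKM (log axis) for protein-coding genes at the minimum (grey, drawn within -5 to 5), with the median of each length decile (squares) and the 10 genes (red). CTGF and CYR61 lie at nearly the same length, 2343 and 2293 nt, with log2 ratios of -1.32 and 0.07.

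Transcript length moved with the ratio across all protein-coding genes, and its part in the single ratios was not tested. The median log2 ratio was -1.47 in the decile of shortest transcripts and 0.35 in the decile of longest ones. The genes that were lower include 2 short transcripts, TEAD4 at 1791 nt and ANKRD1 at 1975 nt, whose decile had a median of -0.65. AMOTL2, with a ratio close to that of CTGF, lay at 5007 nt, in a decile with a median of -0.07. TEAD1 at 9415 nt and LATS1 at 7024 nt lay in the longest decile, slightly below its median. CTGF and CYR61 shared a decile with a median of -0.45, and they lay on opposite sides of it. With adjusted ratios TEAD4 (-1.89), CTGF (-1.23), ANKRD1 (-2.58) and AMOTL2 (-1.24) were still beyond 2-fold, and WWTR1 joined them. Of 13550 genes with adjusted ratios, 23.3% were lower and 12.7% higher.

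Balances between related genes do not depend on the scaling between libraries. In FPKM, TEAD1 exceeded TEAD4 by 2.95-fold in the control and by 14.6-fold in the LINC00472 library. The odds ratio of their counts between the libraries was 4.99 (exact interval 4.19 to 5.97). CTGF stood at 0.244 of CYR61 in the control and at 0.0933 in the LINC00472 library, an odds ratio of 0.382 (0.359 to 0.408). These 2 transcripts are alike in length and in GC content (51.5% and 50.3%). LATS1 stood at 0.961 of LATS2 in the control and at 1.69 in the LINC00472 library, with an odds ratio of 1.60 (1.45 to 1.76). YAP1 and WWTR1 kept nearly the same balance, 1.96 and 2.25, with an odds ratio of 1.10 (1.03 to 1.18). Among the 4 pairs compared, the coactivators had the odds ratio of counts nearest to 1 and the TEAD factors the one farthest from it. TEAD1 and TEAD4 differ widely in length (9415 and 1791 nt), and the part of length in their balance was not tested. With adjusted ratios TEAD1 had -0.57 and TEAD4 -1.89, slightly closer together than CTGF (-1.23) and CYR61 (0.15).

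**Figure D4:**
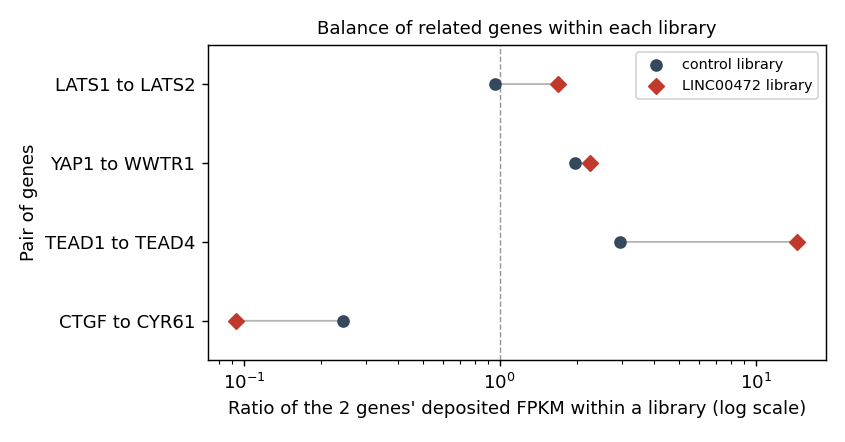
Ratio of the deposited FPKM of 4 pairs of related genes (log axis) within the control library (circles) and the LINC00472 library (diamonds), with the dashed line at equality. The TEAD1 to TEAD4 ratio moves from 2.95 to 14.6 and the CTGF to CYR61 ratio from 0.244 to 0.0933, while YAP1 to WWTR1 goes from 1.96 to 2.25.

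Other genes of the pathway were read from lists drawn up by name. Of 13 upstream genes, which activate or scaffold LATS kinases, 3 were lower and none higher, with a median log2 ratio of -0.42. The share that was lower is close to the 26.2% of protein-coding genes, of which 11.3% were higher. NF2, the membrane-linked tumour suppressor merlin, was 3.53-fold lower (792 against 5945 counts). MOB1A, an adaptor that activates LATS kinases, was 2.75-fold lower (2624 against 15368), and SAV1, the scaffold of the upstream kinases, was 2.02-fold lower (524 against 2254). The call of SAV1 ended with total counts (-0.73) and upper quartile factors (-0.63). FRMD6, a membrane-linked partner, had a log2 ratio of -0.98 and missed the rule. The upstream kinases STK3 (0.09) and STK4 (-0.14) did not meet it either. With upper quartile factors 2 of the 13 were lower and 2 higher, beside 14.2% and 25.1% of all genes. Of 12379 protein-coding genes, 1929 were then lower and 2401 higher. With adjusted ratios 7 were lower, beside 23.3% of all genes and 3080 of 12356 protein-coding ones.

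Of 10 genes whose proteins bind or modify YAP, TAZ or the LATS kinases, 3 were lower and none higher, with a median of -0.81. The share that was lower is again near the 26.2% of protein-coding genes, of which 11.3% were higher. WTIP, a LIM protein related to AJUBA, was 3.85-fold lower (158 against 1296 counts). AMOT, the founding angiomotin, was 2.17-fold lower (336 against 1549), a call that ended with total counts (-0.83) and upper quartile factors (-0.73). AMOTL1 had a log2 ratio of -0.32. AJUBA, which restrains LATS kinases, had -0.99 and fell just short of 2-fold.

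Of 5 further TEAD genes and cofactors, 4 reached the minimum and 1 was lower, a share close to the 26.2% of protein-coding genes. None was higher, beside 11.3% of protein-coding genes. TEAD3 was 2.01-fold lower (161 against 690 counts), a call that ended with total counts (-0.72), upper quartile factors (-0.62) and other alternatives. TEAD2 had a log2 ratio of -0.80. The cofactors VGLL3 (-0.44) and VGLL4 (-0.11), which bind TEAD factors as YAP does, did not meet the rule, and VGLL1 had 0 counts in both libraries. By FPKM, TEAD1 was the most abundant TEAD gene in both libraries. TEAD2 followed with 15.8 FPKM in the LINC00472 library against 24.3 in the control, above TEAD4 in each.

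Of 17 further YAP and TEAD targets, 16 reached the minimum. Of these 4 were lower and 1 was higher, beside 26.2% and 11.3% of protein-coding genes, so the lower calls were about as frequent as among those genes. The median was -0.37, beside -0.31 over protein-coding genes. GADD45B, a stress-response gene, was 3.60-fold lower (186 against 1425 counts), and FJX1, a secreted signalling protein, 2.45-fold (164 against 855). F3, the tissue factor of blood clotting, was 2.38-fold lower (537 against 2716) and TGFB2, a ligand of the TGF-beta family, 2.07-fold (236 against 1041). With total counts F3 (-0.96) and TGFB2 (-0.76) were short of 2-fold, and with upper quartile factors FJX1 (-0.90) was too. DOCK5, an activator of RAC, was 2.05-fold higher (8966 against 9285 counts) and is named because it was the single higher gene. With adjusted ratios it had 0.46 and was no longer called. The receptor kinase AXL (-0.36) and the membrane protein MYOF (-0.41) did not meet the rule. FOXF2 had 0 counts in both libraries. With upper quartile factors 1 was lower and 2 were higher, beside 14.2% and 25.1% of all genes. Of 12379 protein-coding genes, 1929 were lower and 2401 higher with these factors.

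Over the 5 lists together, 44 of 49 genes reached the minimum, 11 were lower and 1 was higher. The share that was lower is close to the 23.8% of all genes and the 26.2% of protein-coding genes. Higher calls were rarer than over all genes (16.3%) and protein-coding genes (11.3%). The balance of lower and higher genes depended on the scaling. Total counts gave 6 that were lower and 2 that were higher, and upper quartile factors gave 5 and 4. Adjusted ratios went the other way, with 15 that were lower and 0 that were higher. Over all genes, 16.3% were lower and 22.5% were higher when total counts were used. Upper quartile factors made these shares 14.2% and 25.1%, and adjusted ratios 23.3% and 12.7%. Among protein-coding genes alone, total counts gave 2227 lower and 2082 higher of 12375. Upper quartile factors gave 1929 and 2401 of 12379, and adjusted ratios 3080 and 1147 of 12356. Of the 10 genes themselves, 4 were lower with total counts and 2, TEAD4 and ANKRD1, with upper quartile factors.

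**Figure D5:**
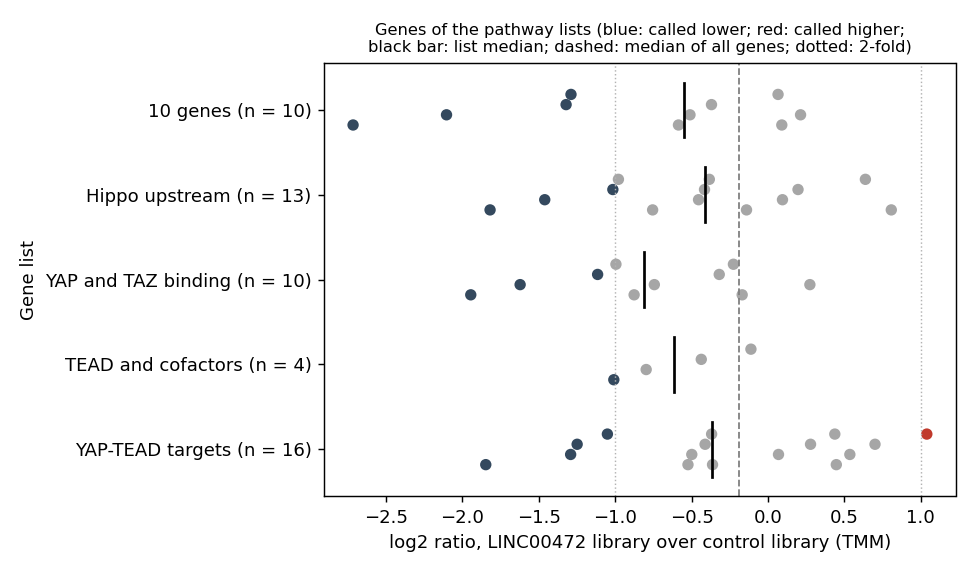
Log2 ratio with TMM for the 10 genes and the genes of 4 pathway lists at the minimum, with genes called lower in blue, higher in red and neither in grey. List medians (black bars) lie between -0.37 and -0.81, below the median of all genes at -0.19 (dashed), and the targets' median of -0.37 is close to that of protein-coding genes at -0.31.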

How the data were processed

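Per the file headers, the authors deposited raw read counts and FPKM of each gene. One table holds both libraries and there is a further table for each, with the same counts for 27685 of 27685 genes. Per the submitters' processing notes, the tools were StringTie 1.3.4b, HISAT2 2.1.0, Trimmomatic and bcl2fastq 2.20.0, and the build was hg19. How reads were counted, and whether by strand, is not given in the sources used here.

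Counts were scaled with TMM in edgeR 4.0.16 (R 4.3.3; factors 1.11 for LINC00472, 0.905 for the control) on the whole table. Log2 ratios had 0.5 counts added in proportion to library size, and their intervals are exact conditional (Clopper-Pearson) 95% intervals of the ratio of 2 counts. Ratios of genes with 0 counts in a library rest on the same added counts, without a further floor. Depth was 21093055 and 54823706 counts, so intervals are narrow except for genes of about 100 counts, such as ANKRD1. Transcript lengths are counts divided by FPKM, scaled on 2273 genes with a single transcript, and GC content and intron lengths came from GENCODE 29. Adjusted ratios are residuals of a spline model (5 knots, degree 3, scikit-learn 1.9.0) over 13550 genes, R squared 0.132, with the median added back. No gene coordinates are printed, because that annotation is of another build than hg19. Promoter coordinates are those of the promoter table.

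The members and lists were chosen with earlier results of these data known. Named genes were the 10 members, up to 4 genes per list with the largest absolute ratio, genes of the lists at 0 in 1 library, LINC00472 and markers. A gene that this rule names is counted with its list and is not reported here. Others, such as DOCK5, STK3, STK4, AMOTL1, AXL, MYOF, MOB1B and WWTR1-AS1, were chosen after their values were seen. The ratio procedure was tested on simulated data. Alternatives were scaling by total counts, by upper quartile factors or by size factors of DESeq2 1.42.0, 5 counts added, FPKM (0.5 added), no minimum or 5 CPM, adjusted ratios, a thinned control and the single-library tables. Scripts ran in Python 3.11.15 with scipy 1.17.1, pandas 2.3.3, numpy 2.4.6 and matplotlib 3.10.9.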

Additional observations from a re-analysis of the deposited data

How the results depend on the processing

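No replicate could be left out and no paired analysis was possible because each group held 1 library. Of the 10 genes, 2 were lower with upper quartile factors, and CTGF (-0.93) and AMOTL2 (-0.90) then fell short of 2-fold. Each other alternative gave 4 or 5 lower genes and 0 higher. Of the further YAP and TEAD targets, total counts gave 2 lower, FPKM 2 lower, upper quartile factors 1 lower and 2 higher, and adjusted ratios 0 higher. Over all 5 lists, lower genes numbered 6 with total counts, 5 with upper quartile factors, 6 with FPKM and 15 with adjusted ratios. Higher genes numbered 2 with total counts, 4 with upper quartile factors, 2 without a minimum and 0 with adjusted ratios. Of all genes, 16.3% were lower with total counts, 14.2% with upper quartile factors and 23.3% with adjusted ratios. The shares that were higher were 22.5%, 25.1% and 12.7%. With FPKM, 2429 of 14012 genes were lower and 2166 higher, so lower calls were fewer over all genes too. Without a minimum, 3657 of 19849 genes were higher. The odds ratio of LATS1 to LATS2 was 1.76 from FPKM, outside its counting interval from counts. DESeq2 size factors, a prior count of 5, a minimum of 5 CPM, the thinned control and the single-library tables changed no call among the 10 genes. The causes of these shifts were not tested. Depth limits TEAD4 and ANKRD1 most, at 146 and 112 counts in the LINC00472 library.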

Other observations

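MOB1A and MOB1B, closely related adaptors of the LATS kinases, went in opposite directions. MOB1A had 22.7 FPKM in the LINC00472 library against 55.0 in the control, and MOB1B had 15.4 and 7.91 (log2 ratio 0.64, short of the rule). MOB1A thus exceeded MOB1B by 6.95-fold in the control and by 1.48-fold in the LINC00472 library. The odds ratio of their counts was 0.234 (exact 95% counting interval 0.218 to 0.251). With adjusted ratios MOB1A had -1.84 and MOB1B only 0.09. The length that counts and FPKM imply for MOB1B also differed between the libraries, with a ratio of 0.910. This pair was chosen after its values were seen, and reads from stretches the genes share may have been assigned to either.

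Of 4 other members of the family of CTGF and CYR61, only WISP2 reached the minimum, with 6.17 FPKM in the LINC00472 library against 8.42 in the control (log2 ratio -0.60). WISP1 had 21 and 7 counts, NOV had 0 and 6, and WISP3 had 0 in both.

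Across genes, the share of lower calls was close to the background whether or not GGAATG stood in the 250 bases before a start. Of 9511 genes at the minimum without a copy, 25.2% were lower, of 1323 with 1 copy 23.7%, and of 105 with 2 or more copies 22.9%. Their median log2 ratios were -0.26, -0.19 and -0.25. CTGF is 1 of 7 genes at the minimum with 3 or more copies, of which 2 were lower and 1 higher. These are descriptions of 2 libraries, and genes are not independent replicates.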
